A study of Rattus norvegicus with 6 samples.

Results

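The accessible regions described here are the 746 ATAC-seq peaks whose signal FSK raised at least 2-fold in WT INS-1 cells but less than 1.5-fold in Med14 S983A cells. They are called blunted peaks below, and were drawn from 220490 merged peaks. INS-1 cells come from a rat insulinoma and serve as a model of beta cells. The mutant cells carry a CRISPR knock-in that puts alanine in place of Ser983 of Med14, and lines were grown from sorted single cells. The study made 2 independent knock-in lines. Which of them gave the 3 mutant libraries, and whether replicates were pooled, is not stated in the labels or methods. The 6 libraries are WT CON, WT Ex-4, WT FSK, Med14 S983A CON, Med14 S983A Ex-4 and Med14 S983A FSK. All cells were washed into medium without serum, then left untreated (CON) or given 10 nM Ex-4 or 10 µM FSK for 1 h. Each condition has a single column of values, treated here as 1 library, so there is no replicate error and no test of any difference. Intervals below cover counting error only.

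Forskolin (FSK) activates adenylate cyclase directly, and Exendin-4 (Ex-4) raises cAMP through the GLP-1 receptor of beta cells. cAMP activates protein kinase A, which phosphorylates CREB and so starts transcription of its target genes from promoters and enhancers. Mediator is the large complex that links factors bound at enhancers to RNA polymerase II, and Med14 is its scaffold subunit. ATAC-seq reads the DNA that the Tn5 transposase can enter, so a peak marks a stretch of open chromatin and its height how often that stretch was cut.

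The blunted peaks were selected on the WT and Med14 S983A changes between CON and FSK, so these changes describe the choice and are no finding. Changes are differences of log2(FPKM + 0.5), where FPKM is the read count scaled to the length of the peak and to the reads inside the library's own peaks. The rule was applied to the 86465 peaks off the mitochondrial chromosome that were called in all 6 libraries and averaged at least 1 FPKM. FSK raised 5139 of these at least 2-fold in WT (5.94%), and 746 of the 5139 (14.5%) were blunted, which is 0.863% of all tested peaks. The other 4393 FSK-raised peaks serve as the closest comparison below. With the genotypes exchanged in the same rule, 180 peaks were found, 4.57% of the 3942 that FSK raised at least 2-fold in Med14 S983A. The blunted peaks thus outnumbered their mirror image 4.14 to 1, a ratio that was 2.54 with each library centred on its median, 2.77 with a pseudocount of 0.1 and 2.62 without one. The median tested peak changed by -0.13 in WT and by -0.12 in Med14 S983A with FSK. On this scale the blunted peaks thus rose in WT while the typical peak fell slightly. The FSK libraries also had more called peaks, 169451 against 131256 in WT CON and 144169 against 119024 in Med14 S983A CON. How far the scaling to a library's own peaks made the small fall was not tested. The effect of the width of a library's own call on its FPKM over a merged peak was not tested either, for the blunted peaks or the others.

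Reads inside peaks numbered between 134300000 in Med14 S983A CON and 251200000 in WT FSK, the deepest library. The median blunted peak held 209.97 reads in WT CON and 936.05 in WT FSK, which gives a counting error of 6.90% and 3.27%. In Med14 S983A it held 229.99 reads in CON and 365.5 with FSK. The counting error of the mutant change minus the WT change had a median SE of 0.17 on the log2 scale. Peaks just inside the WT limit changed between 1.0006 and 1.0021 in WT, and those just outside between 0.9981 and 0.9993. At the other limit, the nearest blunted peaks changed between 0.5821 and 0.5834 in Med14 S983A and the nearest excluded peaks between 0.5858 and 0.5869.

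Before treatment the median blunted peak stood at 2.85 FPKM in WT. Ex-4 and FSK left it at 3.92 and 7.58 FPKM in WT. The corresponding medians of the mutant were 3.55 (CON), 4.16 (Ex-4) and 4.59 (FSK). WT therefore climbed steeply over the series, whereas the mutant started somewhat higher and stayed nearly flat. These were weak peaks before stimulation, since the median tested peak had 8.78 FPKM in WT CON. The other FSK-raised peaks started from 3.69 FPKM in WT CON, had 5.03 with Ex-4 and reached 12.7 with FSK. In the mutant they went from 3.14 FPKM in CON to 5.01 with Ex-4 and 9.21 with FSK. On the log2 scale the median blunted peak rose by 1.20 in WT and by 0.37 in Med14 S983A, against 1.49 and 1.25 for the other FSK-raised peaks.

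**Figure D1:**
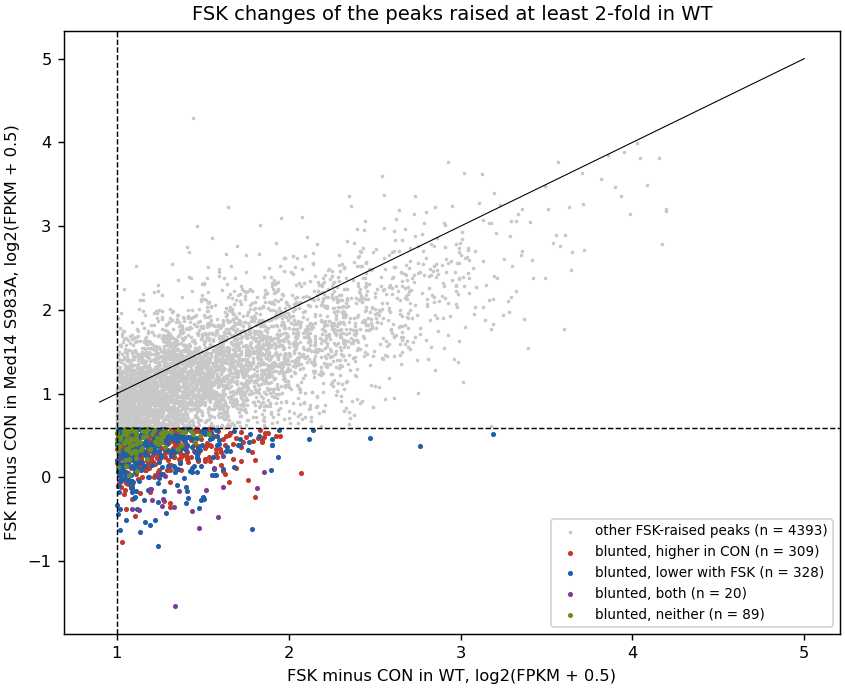
Each point is 1 of the 5139 peaks that FSK raised at least 2-fold in WT, placed by its FSK change in WT (x axis) and in Med14 S983A (y axis), both as differences of log2(FPKM + 0.5). Dashed lines mark the 2 limits of the rule, the solid line marks equal changes, colours mark the 746 blunted peaks and grey the other 4393. Blunted peaks crowd at the left, and 6 of them lie at a WT change of 2 or more.

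Strongly induced peaks were seldom blunted. Of the FSK-raised peaks with a WT change between 1 and 1.5, 639 of 2888 (22.1%) were blunted. The share was 7.29% between 1.5 and 2, and 6 of 866 (0.693%) at 2 or above. Part of this slope is fixed by the rule, since a peak near the WT limit has the shortest way to fall below the mutant limit. By the level in WT CON, 18.5% of the raised peaks under 2 FPKM and 9.18% of those at 10 FPKM or more were blunted. By the level in Med14 S983A CON the order was the other way, with 10.4% under 2 FPKM and 16.4% at 10 FPKM or more. Both levels enter the rule, so these shares only describe the choice.

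A smaller rise can come from a higher start or from a lower end point, and the blunted peaks held both patterns. In 309 of them (41.4%) Med14 S983A CON was at least 1.5-fold above WT CON, while FSK levels were less than 1.5-fold lower in the mutant. In 328 (44.0%) the mutant was at least 1.5-fold lower with FSK, without such a difference in CON. A further 20 peaks met both conditions and 89 met neither. These groups were formed from the same 4 libraries as the rule and are a description. Of all tested peaks, 12.3% had such a higher CON level and 20.8% such a lower FSK level in the mutant. Among the blunted peaks these shares were 44.1% and 46.6%, and among the other FSK-raised peaks 19.7% and 33.7%.

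The peaks higher in CON were already open in the unstimulated mutant. Their median was 2.05 FPKM in WT CON, 3.02 in WT Ex-4 and 6.17 in WT FSK. The mutant medians were 6.05 FPKM (CON), 7.05 (Ex-4) and 7.44 (FSK). The unstimulated mutant thus stood close to the stimulated WT, at a median of 89.6% of the WT FSK level of the same peak, and 116 of the 309 peaks were at or above it. With FSK, 208 of the 309 were at or above the WT FSK level. The remaining peaks of this group were lower in the mutant with FSK, by less than 1.5-fold as the grouping requires. Over all 746 blunted peaks, the mutant was at or above the WT FSK level at 117 in CON and at 210 with FSK. Among the 4393 other FSK-raised peaks these counts were 101 and 1370.

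The peaks lower with FSK behaved in the opposite way. Their median was 3.60 FPKM in WT CON, 4.92 in WT Ex-4 and 9.31 in WT FSK, against mutant medians of 2.24 (CON), 2.60 (Ex-4) and 2.80 (FSK). The stimulated mutant reached a median of 35.3% of the WT FSK level. In 183 of the 328 it remained below even the unstimulated WT. No other blunted peak did so, and 380 of the 4393 other FSK-raised peaks did. Before treatment the mutant was also lower at the 328 peaks, by a median of -0.37 on the log2 scale. That median was -0.87 over the other FSK-raised peaks lower with FSK by the same grouping, and -0.98 over all such tested peaks. The lower start was thus smaller at the blunted peaks than in these sets.

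The 89 peaks of neither group lay between these patterns. Their median was 3.71, 4.66 and 8.53 FPKM in WT CON, Ex-4 and FSK, and 4.43, 5.29 and 6.66 in Med14 S983A. The mutant started 0.40 above WT and ended at -0.36 from it on the log2 scale, so a modest shift at each end made up the difference. The 20 peaks that met both conditions had the lowest medians of the 4 groups in every WT library and in Med14 S983A FSK. They had medians of 1.22, 2.07 and 4.61 FPKM in WT, and 2.78, 2.65 and 2.39 in the mutant, which is a rise in WT beside a slight decline in the mutant.

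**Figure D2:**
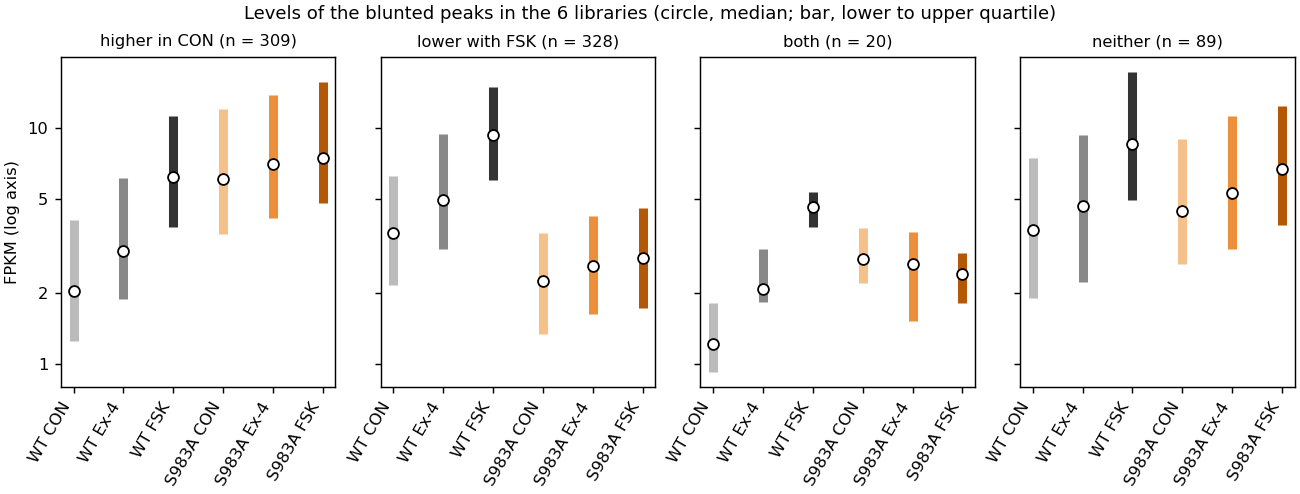
FPKM on a log axis in the 6 libraries for the 4 groups of blunted peaks, with the median as a circle and the range between the quartiles as a bar. In the peaks higher in CON the mutant medians of 6.05 to 7.44 lie near or above the WT FSK median of 6.17, and in the peaks lower with FSK the mutant medians of 2.24 to 2.80 lie below the WT CON median of 3.60.

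The peak with the largest WT change lies on chromosome 6 of rn6 from 57599290 to 57600304. It had 0.794 FPKM in WT CON (95% exact Poisson interval 0.659 to 0.948), 4.16 in WT Ex-4 (3.85 to 4.49) and 11.3 in WT FSK (10.9 to 11.7). In Med14 S983A it had 1.25 FPKM (1.07 to 1.45), 1.56 (1.37 to 1.78) and 2.01 (1.80 to 2.24). WT signal rose 14.2-fold with FSK and mutant signal 1.61-fold, both as ratios of FPKM. The mutant peak was thus not flat, but ended below the WT level under Ex-4.

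Next came a peak on chromosome 16 from 25118037 to 25118518, at 1.66, 4.86 and 14.1 FPKM in WT CON, Ex-4 and FSK. In Med14 S983A the values were 2.60, 3.55 and 3.51, so FSK brought it no higher than Ex-4 there. The third is a broad peak of 1534 bp on chromosome 8 from 129824718 to 129826252, with 4.59, 10.2 and 27.7 FPKM in WT and between 1.05 and 1.65 in the 3 mutant libraries. Every mutant value of this peak was below the unstimulated WT value. On chromosome 4 from 176999608 to 177000306, WT CON, Ex-4 and FSK stood at 1.48, 1.23 and 8.21 FPKM, and Med14 S983A had 1.06, 0.925 and 1.81. Ex-4 left this peak at its starting level in both genotypes, and it falls in a stretch at the end of chromosome 4 where runs of peaks were lower in the mutant.

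Further peaks with large WT changes stayed far below WT in the mutant. On chromosome 2 from 140118826 to 140119499, WT went from 9.44 FPKM in CON to 23.4 with Ex-4 and 42.6 with FSK. Med14 S983A stood at 0.896, 1.20 and 1.41. The peak on chromosome 14 from 33026947 to 33027639 had 8.37, 16.6 and 33.7 FPKM in WT and 1.55, 1.99 and 2.54 in the mutant. At both peaks the mutant values do not reach the WT CON value under either stimulus.

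The peak on chromosome 5 from 134710125 to 134710614 shows the other pattern. WT had 1.61, 3.62 and 8.36 FPKM in CON, Ex-4 and FSK, and Med14 S983A had 19.6, 20.8 and 20.4. The mutant was high in all 3 libraries, and its counting intervals overlapped between CON (18.6 to 20.7) and FSK (19.4 to 21.4). On chromosome 16 from 76091026 to 76091573, WT had 1.25, 1.89 and 6.28 FPKM and the mutant 3.36, 4.10 and 4.94. Here the mutant started above WT and ended below it. The remaining 2 of the 10 largest WT changes, on chromosomes 2 and 6, reached 5.46 and 4.51 FPKM in WT FSK and 1.78 and 3.39 in the mutant.

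**Figure D3:**
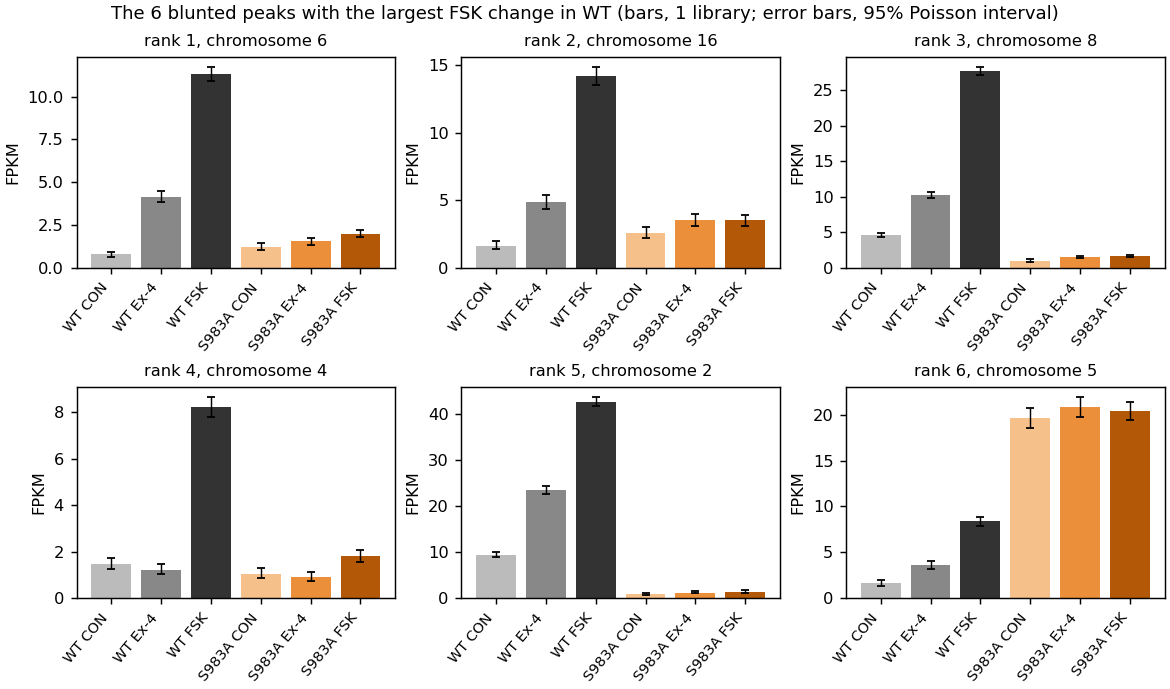
FPKM (y axis, from 0) in the 6 libraries for the 6 blunted peaks with the largest FSK change in WT, ordered by that change, with 95% Poisson intervals for counting error as error bars. Ranks 1 to 5 are tall in WT FSK and low in every mutant library, whereas rank 6, on chromosome 5, is at 19.6 to 20.8 in all 3 mutant libraries.

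In 86 of the 746 blunted peaks (11.5%), FSK lowered the signal in Med14 S983A while raising it at least 2-fold in WT. Over all tested peaks, 63.7% fell with FSK in Med14 S983A, so a fall on the FPKM scale was common by itself. The fall was at least 1.5-fold in 7 of the 86, and smaller falls were not separated from counting error. The largest difference between the 2 changes was at a peak on chromosome 17 from 75357139 to 75357586. WT CON, Ex-4 and FSK stood at 1.65, 6.39 and 4.94 FPKM there. Med14 S983A had 6.30, 6.23 and 1.84. Ex-4 thus left the mutant level of this peak where it was, and FSK took it down to about the WT CON level. On chromosome 5 from 86614247 to 86615005, WT rose from 1.78 to 3.67 and 7.34 FPKM, and the mutant fell from 1.35 to 0.798 and 0.704. On chromosome 1 from 44349860 to 44351252, WT rose from 10.9 to 16.8 and 26.5 FPKM, while the mutant fell from 9.90 to 8.47 and 5.38. At these 2 peaks Ex-4 already moved the genotypes apart, and FSK moved them further. The peaks on chromosome 11 from 75948581 to 75949197 and on chromosome 9 from 84296200 to 84296683 met both conditions above. The first had 0.707, 0.991 and 2.86 FPKM in WT and 2.54, 2.78 and 1.49 in the mutant. The second had 1.27, 1.97 and 4.83 in WT and 2.87, 2.41 and 1.92 in the mutant. On chromosome 7 from 50127780 to 50128483, WT had 1.83, 3.07 and 7.63 FPKM and the mutant 10.8, 10.1 and 9.09.

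The 5 tallest blunted peaks in WT FSK differed in their response to Ex-4. On chromosome 1 from 202955574 to 202956556, WT CON, Ex-4 and FSK had 28.7, 67.9 and 68.9 FPKM. Med14 S983A had 61.0, 83.4 and 87.0. The peak on chromosome 2 from 219344081 to 219345357 had 19.8, 49.8 and 54.3 FPKM in WT and 46.0, 63.0 and 64.5 in the mutant. That on chromosome 1 from 52806626 to 52808149 had 31.0, 57.8 and 67.3 in WT and 57.9, 76.7 and 84.5 in the mutant. These 3 peaks were higher in the mutant under every treatment, and Ex-4 took them most of the way to the FSK level in WT. The other 2 of the 5 tallest were lower in every mutant library, and Ex-4 took them less far towards the FSK level in WT. The peak on chromosome 2 from 193343773 to 193344603 had 29.9, 41.0 and 67.9 FPKM in WT and 23.7, 26.3 and 35.2 in the mutant. The peak on chromosome 10 from 7776701 to 7777618 had 20.8, 35.0 and 48.8 in WT and 3.78, 4.08 and 5.61 in the mutant.

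The Ex-4 libraries took no part in the choice beyond the requirement of a call and the mean level, so the genotype difference within Ex-4 was read without CON or FSK. Over the blunted peaks the median of Med14 S983A Ex-4 minus WT Ex-4 was 0.21 on the log2 scale, against 0.11 over the other FSK-raised peaks and 0.052 over all tested peaks. It lay between the differences of 0.45 in CON and -0.48 in FSK, both of which the rule had used. Over the 180 mirror peaks, chosen with the genotypes exchanged, the median difference with Ex-4 was -0.47. The mutant was at least 1.5-fold higher with Ex-4 at 239 blunted peaks (32.0%), where the background was 12.6%, and at least 1.5-fold lower at 175 (23.5%), where the background was 17.9%. Among the other FSK-raised peaks these shares were 24.6% and 20.6%. Differences in either direction were therefore more frequent than over all peaks, and the direction followed the split made in CON and FSK. Of the 309 peaks higher in CON, 221 (71.5%) were at least 1.5-fold higher in the mutant with Ex-4 and 0 were at least 1.5-fold lower. The lowest difference in this group was -0.51 on the log2 scale. Of the 328 peaks lower with FSK, 173 (52.7%) were at least 1.5-fold lower in the mutant with Ex-4 and 4 were at least 1.5-fold higher. Their median differences with Ex-4 were 0.91 and -0.61.

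Peaks outside the blunted set carried their genotype difference into the Ex-4 libraries at least as often. Of the 10258 such peaks that met the condition in CON alone, 79.0% were at least 1.5-fold higher with Ex-4. Of the 17593 that met the condition in FSK alone, 75.7% were at least 1.5-fold lower. A genotype difference that recurs with Ex-4 was thus no less frequent outside the blunted set. At the upper end, a peak on chromosome 19 from 44260359 to 44261547 had 0.572, 0.816 and 1.70 FPKM in WT CON, Ex-4 and FSK and 13.6, 13.8 and 16.0 in the mutant. The other 4 peaks of the 5 with the highest Ex-4 difference lay between 0.494 and 2.38 FPKM in WT Ex-4 and between 9.87 and 25.8 in Med14 S983A Ex-4. At the lower end, a peak on chromosome 7 from 114369916 to 114371339 had 18.6, 28.3 and 40.5 FPKM in WT and 0.748, 0.487 and 0.565 in the mutant. The other 4 at that end lay between 25.5 and 35.2 FPKM in WT Ex-4 and between 1.06 and 1.65 in the mutant. At these 10 peaks the genotypes lay further apart than CON and FSK within either genotype.

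**Figure D4:**
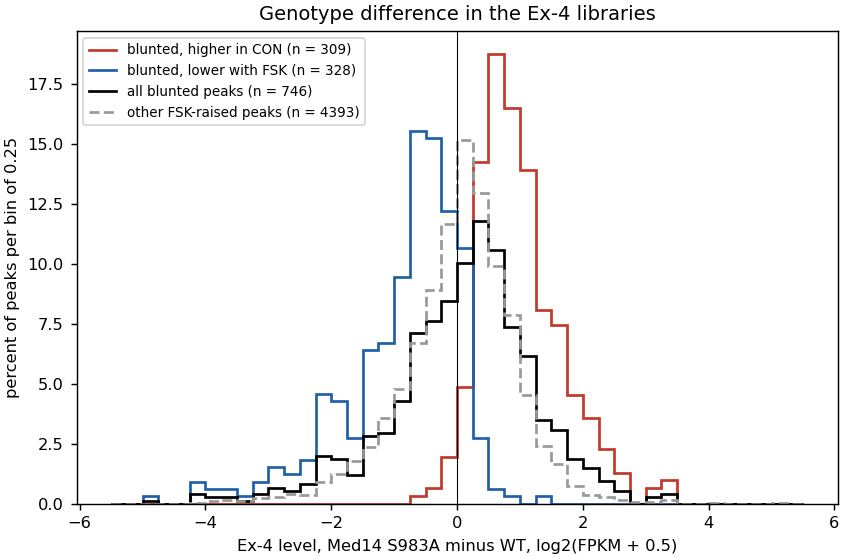
Share of peaks (y axis, percent per bin) by the genotype difference in the Ex-4 libraries (x axis, Med14 S983A minus WT on the log2 scale) for all blunted peaks, for their 2 main groups and for the other FSK-raised peaks. The peaks higher in CON have a median of 0.91, those lower with FSK one of -0.61, and the blunted peaks together one of 0.21.

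Ex-4 is the milder stimulus, and its change over CON was read next. It shares the CON libraries with the choice, so any error in a CON library enters both the FSK and the Ex-4 change. The median Ex-4 change over the blunted peaks was 0.43 in WT and 0.20 in Med14 S983A, against 0.40 and 0.55 over the other FSK-raised peaks. Ex-4 raised 228 blunted peaks at least 1.5-fold in WT (30.6%), where the background was 2.34%. In Med14 S983A it raised 32 (4.29%), where the background was 3.60%. Of the other FSK-raised peaks, Ex-4 raised 29.7% in WT and 45.7% in the mutant. In WT the 2 sets thus had similar shares, and in Med14 S983A the blunted peaks were near the background. The order CON below Ex-4 below FSK held at 691 blunted peaks in WT (92.6%), against 21.0% of all tested peaks. In Med14 S983A it held at 396 (53.1%), against 21.4%. The other FSK-raised peaks had this order in 92.5% of cases in WT and in 95.9% in the mutant. The rule puts FSK above CON in WT for both sets and limits the mutant change of the blunted peaks. These shares are therefore partly fixed by the choice and are a description.

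To set aside the choice on the CON libraries, FSK was compared with Ex-4 of the same genotype, so that a library outside the choice took the place of CON. The FSK libraries remained shared with the rule. FSK exceeded Ex-4 by a median of 0.81 on the log2 scale in WT and 0.12 in Med14 S983A over the blunted peaks, and by 1.10 and 0.72 over the other FSK-raised peaks. The FSK step was larger in WT than in the mutant at 735 of 746 blunted peaks (98.5%), where 50.9% of all tested peaks and 87.6% of the other FSK-raised peaks had it larger in WT. FSK was at least 1.5-fold above Ex-4 at 573 blunted peaks in WT (76.8%), against a background of 8.68%, and at 36 in Med14 S983A (4.83%), against 5.28%. Since the rule picked peaks with a high WT FSK and a low mutant FSK value relative to CON, these shares are partly fixed by the choice and are given as a description.

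**Figure D5:**
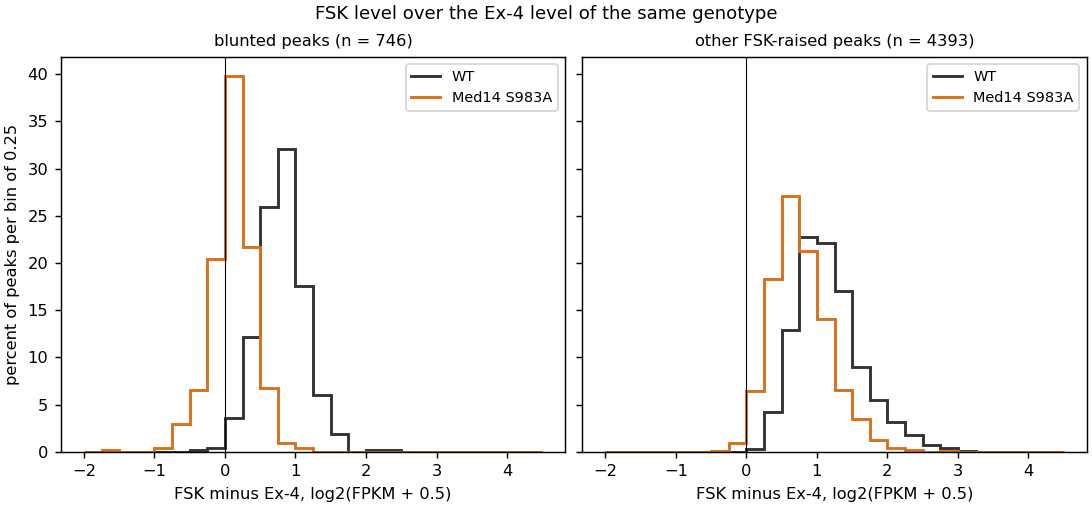
Share of peaks (y axis, percent per bin) by FSK minus Ex-4 on the log2 scale (x axis) in WT and Med14 S983A, for the blunted peaks and for the other FSK-raised peaks. The medians are 0.81 in WT and 0.12 in the mutant for the blunted peaks, and 1.10 and 0.72 for the others.

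The pseudocount of 0.5 compresses changes of weak peaks, and the mutant levels were often low. As ratios of FPKM, the median FSK fold over the blunted peaks was 2.57 in WT and 1.34 in Med14 S983A. In 131 of the 746 (17.6%) the mutant ratio was 1.5 or more, with a median of 2.44 FPKM in Med14 S983A CON for these peaks, and 1 peak reached 2.03. Without a pseudocount (an alternative added once the data had been seen), 951 peaks met the rule, 363 met its mirror image, and 615 of the 746 (82.4%) were kept.

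Blunted peaks were found on every chromosome tested, from 9 on chromosome 12 to 82 on chromosome 1. As a share of the FSK-raised peaks of a chromosome they ranged from 6.57% on chromosome 12 and 8.59% on chromosome 10 to 19.4% on chromosomes 17 and X. Of the blunted peaks, 680 had no other blunted peak within 50 kb, 30 pairs lay that close, and the 2 remaining groups held 3 each. The 66 peaks with such a neighbour matched the pattern of the nearest one in 28 cases. These counts were not made for other sets of peaks, so they do not tell whether blunted peaks are scattered or clustered. In 4 stretches of chromosomes 4, 5, 9 and 15, the median genotype difference over runs of 200 neighbouring peaks was shifted at least 1.5-fold from that of all tested peaks in every treatment, and 21 blunted peaks (2.82%) lay there, against 3.01% of all tested peaks.

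Peaks near the blunted ones were compared between the genotypes, leaving out those that FSK raised in WT. The nearest such tested peak lay within 50 kb for 693 blunted peaks, at a median distance of 6.40 kb. Over these 675 distinct neighbours the median FSK change was -0.078 in WT and -0.19 in Med14 S983A, against -0.16 and -0.15 over all peaks that were not raised. Neighbours of the other FSK-raised peaks had medians of -0.065 and -0.070. A small WT change is fixed by leaving out raised peaks. Neighbours of the peaks higher in CON had a median genotype difference with Ex-4 of 0.15, and 18.0% of them were at least 1.5-fold higher in the mutant, against 11.7% of all peaks not raised. Neighbours of the peaks lower with FSK had a median of -0.069, and 26.5% were at least 1.5-fold lower, against 17.7%. The neighbours thus leaned the same way as the blunted peaks, by far smaller amounts than the 0.91 and -0.61 of the peaks themselves.

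In median width and spacing the blunted peaks were close to the rest, though narrow FSK-raised peaks were blunted more often than wide ones. Their median width was 530.5 bp, against 552 bp for the other FSK-raised peaks and 584 bp for all tested peaks. The narrowest FSK-raised peaks, under 300 bp, were blunted in 23.0% of cases, and those of 1000 bp or more in 11.4%. The nearest merged peak of any kind lay at a median of 2043 bp from a blunted peak and 2332 bp from a tested peak. Genes near the peaks, promoters, DNA sequence and binding motifs such as the CRE were not analysed here.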

How the data were processed

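Open chromatin was profiled by ATAC-seq in 6 conditions of INS-1 cells, each a single library. The authors used Trim Galore for trimming and bwa mem for alignment to rn6. Before peak calling (macs2, per library), samtools served to drop duplicates, weak alignments and reads from the mitochondrial genome. Per the file headers, HOMER gave FPKM over the merged peaks. The Tn5 shift is described for footprinting and not for this step.

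From the deposited FPKM, log2(FPKM + 0.5) was taken for peaks called in all 6 libraries with a mean of at least 1 FPKM, leaving out 3 mitochondrial peaks. Reads were recovered from the whole steps of the smallest values, all within 0.15 of a whole number. A step may be a read or a read end. If it is a read end, the counting errors and intervals given are too narrow. No p-value was computed, and intervals are exact Poisson at 95%. Differences of levels were counted at 1.5-fold. Alternatives changed the pseudocount, the filter on the mean, the scaling, either limit and the calls required. The grouping of the peaks and the comparison with neighbours were chosen after values were seen. The peaks, lists and comparisons were chosen with earlier results of these data known. Peaks named were the 10 largest WT changes, the 10 largest differences of changes, the 5 highest WT FSK levels and the 5 largest Ex-4 differences each way. The reference held another build than rn6, so no gene or sequence was assigned. The rule was run on simulated reads with planted rises well above the WT limit, equal depths and Poisson noise only. This checked the code, and cannot show how the rule behaves near its limits. Computations used pandas 2.3.3, numpy 2.4.6 and scipy 1.17.1 under Python 3.11.15, with figures from matplotlib 3.10.9.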

Additional observations from a re-analysis of the deposited data

Results flagged for a closer look

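At 86 blunted peaks the FPKM moved in opposite directions with FSK, rising at least 2-fold in WT and falling in Med14 S983A. These 86 are 11.5% of the blunted peaks, whereas 63.7% of all tested peaks fell with FSK in Med14 S983A. The fall reached 1.5-fold at 7 of the 86, and the median tested peak changed by -0.12 in Med14 S983A on the log2 scale. Smaller falls were not separated from this shift or from counting error. The difference between the genotypes was not tested, since each has 1 library per treatment. Of these peaks, 47 belong to those lower with FSK in the mutant, 24 to those higher in CON and 15 to those that met both conditions. The fall in Med14 S983A was at least 2-fold at 1 peak, the one on chromosome 17 described above. With the genotypes exchanged, 21 of the 180 mirror peaks fell in WT.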

How the results depend on the processing

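No paired analysis was possible because all 6 conditions are single libraries, and for the same reason no replicate could be left out. The setting without a pseudocount was chosen after seeing the data. The count of 746 blunted peaks lay within 1.5 times under 9 of 13 alternatives. It was 3320 with a WT limit of 1.5-fold, 6 with a WT limit of 4-fold, 86 with a Med14 S983A limit of 0 and 458 where the 2 changes had to differ by at least 1. The 180 mirror peaks became 321 with a pseudocount of 0.1, 363 without one, 113 with a mean of at least 3 FPKM, and 1586, 0, 21 and 98 under the same 4 limits. Centring each library gave 671 blunted and 264 mirror peaks, and quantile normalization 763 and 238. Similar counts hid a change in which peaks were blunted. Of the 746, 540 (72.4%) stayed blunted under centring, 75.7% under quantile normalization and 72.1% with a pseudocount of 1. Where the 2 changes had to differ by at least 1, 37.9% stayed. Blunted peaks outnumbered mirror peaks under all 13 alternatives, by a ratio between 2.09 and 5.20 in the 12 that left any mirror peak. The genotype difference with Ex-4, 0.21, was 0.34 with a pseudocount of 0.1, 0.33 without one, 0.091 with a pseudocount of 1, 0.31 under centring and under quantile normalization, and 0.098 with a WT limit of 1.5-fold. It reversed to -0.79 over the 6 peaks with a WT limit of 4-fold and to -0.11 over the 86 peaks with a mutant limit of 0. These medians join 2 groups of opposite sign, so their sign depends on the mix of the groups. The share of blunted peaks with the larger FSK step over Ex-4 in WT, 98.5%, moved to 96.2% with a pseudocount of 0.1, 95.6% without one, 97.2% under centring, 96.9% under quantile normalization, 94.0% and 100% with WT limits of 1.5-fold and 4-fold, and 96.4% over peaks called in the 4 CON and FSK libraries. The spread between libraries of 1 condition is unknown here. WT FSK is the deepest library, and its depth and its condition cannot be told apart.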

Other observations

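The rule leaves out peaks that a library's own list lacks. Without the requirement of a call in all 6 libraries, 8284 of the 146906 peaks that averaged 1 FPKM or more lay past both limits. Of the 7538 added in this way, 6797 are listed at 0 in WT CON and 4254 in Med14 S983A FSK, and 35 have a value in each of the 4 CON and FSK libraries. A listed 0 was read as the lack of a call and not as a measured level. Changes from or to a 0 were therefore not counted as rises or falls. Across the blunted peaks, the genotype difference with Ex-4 had a Pearson correlation of 0.95 with that in CON and 0.95 with that in FSK, over 746 peaks that share their 6 libraries and are not independent. The same correlations were 0.92 and 0.91 over the other FSK-raised peaks and 0.95 and 0.92 over all tested peaks.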
